A study of Mus musculus with 6 samples.

Results

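Mesothelium is the sheet of flat cells that lines the pleura, peritoneum and pericardium, and malignant mesothelioma arises from it. Transcript levels of 10 genes used to mark this lineage were followed on 6 arrays of mouse cancer cell lines: Msln, Wt1, Upk3b, Upk1b, Lrrn4, Gpm6a, Pdpn, Gata6, Bnc1 and Cav1. The genes were chosen by symbol as members of the mesothelial lineage, with earlier results of these data known. All 10 had a probe set, 1 each, among the 22180 genes that carried a probe set with a single symbol. The question was whether AE17, the only mesothelioma line here, carried these transcripts above the other lines, and how each ratio of sh Spp1 over sh Ctrl ran within a line.

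The groups were AE17 sh Spp1 and AE17 sh Ctrl (malignant mesothelioma), LLC sh Spp1 and LLC sh Ctrl (Lewis lung carcinoma), and MC38 sh Spp1 and MC38 sh Ctrl (colon adenocarcinoma), with 1 array each. The label sh Spp1 stands for depletion of Spp1, the gene of the secreted protein osteopontin, by a short hairpin RNA. The sh Ctrl samples bear the genotype label wild type, so whether they received a control hairpin is not given in the sources used here. All cells were grown in serum-containing medium without a further treatment, and the labels do not say whether a line was a clone or a pool. Each tumour type is represented by 1 line, so a difference between lines is one between these cultures and not between tumour types. No line and label has a second array, so p-values do not measure a spread between replicates. In the main fits they rest on how far the ratios of sh Spp1 over sh Ctrl differ between lines.

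Of the members, the labelled lineage rests on different kinds of protein. Msln encodes mesothelin, a surface glycoprotein anchored to the membrane that binds the mucin Muc16. Wt1 is a zinc-finger transcription factor of the developing mesothelium, kidney and gonad, Gata6 a transcription factor of endoderm and heart as well as mesothelium, and Bnc1 (basonuclin) a zinc-finger protein of keratinocytes, germ cells and mesothelium. Upk3b and Upk1b belong to the uroplakins, membrane proteins best known from urothelium, and Upk1b is a tetraspanin. Lrrn4 is a leucine-rich repeat membrane protein and Gpm6a a neuronal glycoprotein of the proteolipid family, both also found in mesothelium. Pdpn, podoplanin, is a mucin-like surface protein of mesothelium, lymphatic endothelium and flat alveolar cells, and Cav1 is the main coat protein of caveolae in many flat and mesenchymal cells.

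Before the results, the state of the arrays bears on them. The median deposited intensity ran from 26.6 on the AE17 sh Spp1 array to 64.2 on the LLC sh Ctrl array, so levels below are log2 intensities after quantile normalization. The AE17 sh Spp1 and AE17 sh Ctrl arrays correlated across probe sets at r = 0.939, against 0.979 within LLC and 0.982 within MC38, and each AE17 array correlated more closely with all 4 arrays of the other lines (0.943 to 0.954) than with its partner. No probe set with a symbol here named Spp1 (0 of 41345), so the depletion itself was not analysed here and each direction rests on the labels. A level near the brightness floor, a log2 intensity of 4.49 set at the 30th percentile of all probe sets, cannot be told apart from background, and differences there understate a true fold. In bulk RNA, fewer cells that carry a transcript and less of it per cell cannot be told apart.

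The promoters of Pdpn, Bnc1 and Cav1, members bright in at least 1 line, are shown because these genes differ in how their levels split between the lines, and that of Upk3b because its level lay near the floor everywhere. Of the 10 members 6 had a window in the RefSeq promoter table (GRCm38.p6), which spans 250 bases before to 50 after a transcript's start, with 8 windows in all. Each is written 5′ to 3′ on the gene's own strand. Capitals mark matches, searched on either strand, to 6 short motifs. The motif of the GC box, bound by Sp1, was searched as GGGCGG. For the core promoter the TATA box was searched as TATAAA. The box of the factor NF-Y was searched by the letters CCAAT. A site of AP-1, the Fos and Jun dimer, was searched as TGANTCA. For the TEAD factors, partners of YAP, the letters were GGAATG. For GATA factors the letters were AGATAA, and no match overlapped another in these windows.
Pdpn, chr4:143299515-143299814, minus strand: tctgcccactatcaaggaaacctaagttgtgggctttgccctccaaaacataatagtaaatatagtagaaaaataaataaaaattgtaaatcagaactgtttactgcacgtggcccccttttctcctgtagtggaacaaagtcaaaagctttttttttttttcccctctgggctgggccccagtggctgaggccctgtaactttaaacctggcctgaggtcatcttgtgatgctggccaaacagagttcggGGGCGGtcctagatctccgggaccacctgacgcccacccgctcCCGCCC
Bnc1, chr7:81992250-81992549, minus strand: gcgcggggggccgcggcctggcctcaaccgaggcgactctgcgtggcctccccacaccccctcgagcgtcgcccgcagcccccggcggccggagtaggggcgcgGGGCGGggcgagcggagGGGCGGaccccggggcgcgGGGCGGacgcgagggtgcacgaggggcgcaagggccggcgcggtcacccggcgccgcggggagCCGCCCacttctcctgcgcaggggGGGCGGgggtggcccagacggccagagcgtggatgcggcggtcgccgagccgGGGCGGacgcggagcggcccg
Cav1, first of its windows, chr6:17306085-17306384, plus strand: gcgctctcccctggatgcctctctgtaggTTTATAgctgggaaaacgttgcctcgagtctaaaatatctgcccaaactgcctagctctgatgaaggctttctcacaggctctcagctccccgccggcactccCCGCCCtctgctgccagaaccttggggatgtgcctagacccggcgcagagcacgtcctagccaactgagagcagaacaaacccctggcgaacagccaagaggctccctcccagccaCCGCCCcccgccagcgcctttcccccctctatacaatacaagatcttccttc
Upk3b, chr5:136038246-136038545, plus strand: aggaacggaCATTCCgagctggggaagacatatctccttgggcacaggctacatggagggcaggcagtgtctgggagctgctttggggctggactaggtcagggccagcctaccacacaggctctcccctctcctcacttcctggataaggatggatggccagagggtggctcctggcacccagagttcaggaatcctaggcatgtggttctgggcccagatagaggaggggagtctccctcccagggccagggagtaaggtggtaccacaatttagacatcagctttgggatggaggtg
The Bnc1 window is 83.3% G and C and holds 6 GC boxes, against 48.7% and 2 in Pdpn, 59.3% and 2 in Cav1, and 58.7% and 0 in Upk3b. A GC box occurs in 35.7% of the 32851 promoter windows of the table. Cav1 alone of the 4 holds a TATA box, at position -221 from the start, a motif in 13.6% of all windows. Upk3b holds 1 TEAD site, as do the windows of Lrrn4 and the first window of Gpm6a, a motif in 14.7% of all windows. The printed windows hold no CCAAT box, AP-1 site or GATA site, motifs in 37.4%, 7.81% and 11.2% of all windows. Such matches describe letters and do not show that a factor binds.

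The first comparison set AE17 against LLC and MC38. None of the 10 members separated AE17 from the others: in no case did both AE17 arrays lie above all 4 other arrays, or both below them (0 of 10 each way). Among all 16797 genes tested, both AE17 arrays lay above the rest for 14.7% and below for 7.57%. In the deposited intensities, where the AE17 arrays had the lowest medians, both lay below all others for 4 of 10 members, Upk3b, Gpm6a, Gata6 and Bnc1, where 35.3% of all genes did. Of the members, 4 varied widely over the arrays, by 2.75 to 5.47 log2 units, namely Msln, Pdpn, Gata6 and Bnc1. The other 6 varied by 0.44 to 1.14 log2 units.

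**Figure D1:**
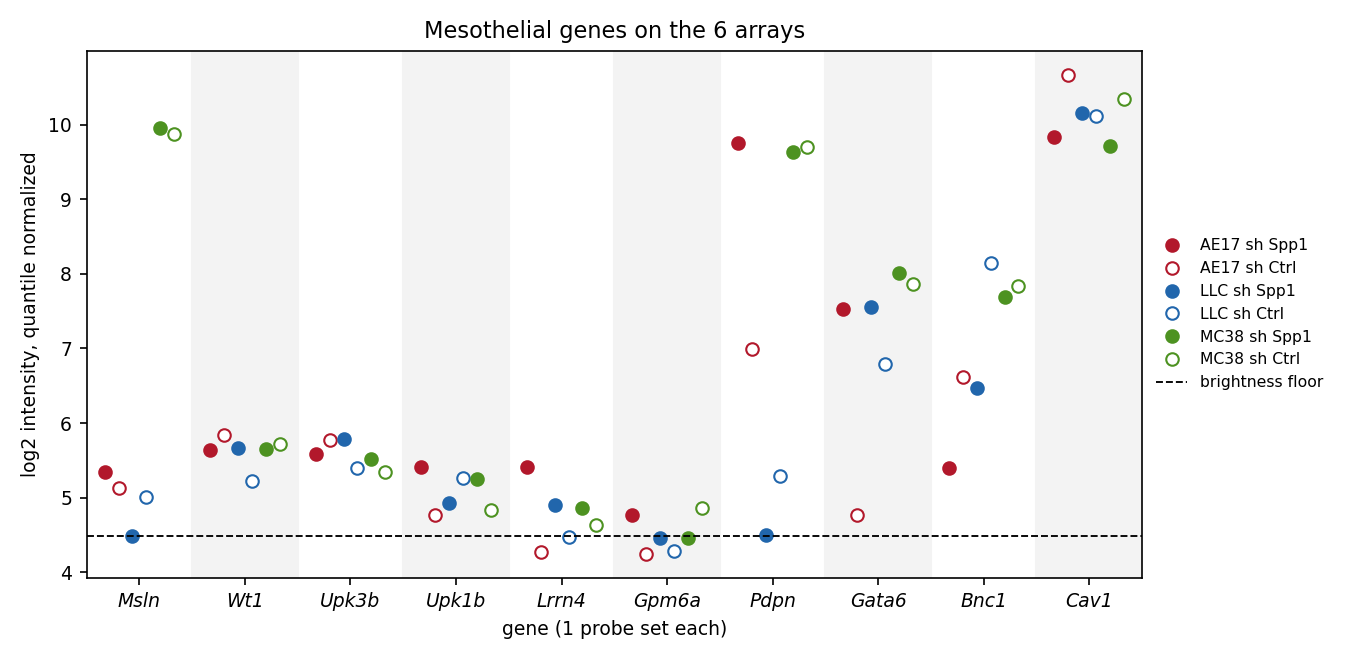
Log2 intensity (quantile normalized) of each gene on each of the 6 arrays; colours are lines, filled points sh Spp1, open points sh Ctrl, and the dashed line the brightness floor at 4.49. Msln was high in MC38 alone, Pdpn in MC38 and on the AE17 sh Spp1 array, and Wt1, Upk3b, Upk1b, Lrrn4 and Gpm6a lay within 1.34 log2 units of the floor on every array.

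Msln, the antigen by which mesothelioma is often recognised, was high in the colon line and near the floor in the mesothelioma line. Its level was 5.34 on the AE17 sh Spp1 array and 5.13 on the AE17 sh Ctrl array, against 4.49 and 5.01 in LLC sh Spp1 and sh Ctrl and 9.96 and 9.87 in MC38 sh Spp1 and sh Ctrl. The MC38 arrays thus stood over 4 log2 units above every other array, while AE17 and LLC lay close together. AE17 was 4.68 ± 0.27 log2 units below MC38 (difference -4.68, SE, 2 arrays a line), a 25.7-fold difference, which limma placed at an adjusted p of 0.0667. The interval of that difference ran from -5.39 to -3.98 (95%). The adjusted p was 0.0019 in the deposited intensities, where the difference was -5.24 and the all-gene median -0.52. Without the shRNA term it was 0.0110. It stayed above 0.05 with median centring (0.0595), no brightness filter (0.0508) and a filter at the 50th percentile (0.0597). The same held with averaged probe sets (0.0632) and a trended prior (0.0582). The difference was -4.47 without the AE17 sh Ctrl array and -4.90 without the AE17 sh Spp1 array. With an LLC array left out it was -4.68, and with an MC38 array left out -4.81 or -4.56. Against LLC the difference was 0.48 ± 0.27, with an interval of -0.22 to 1.19 and an adjusted p of 0.492. In deposited intensity units Msln stood at 26.0 and 31.2 in AE17 sh Spp1 and sh Ctrl, 19.6 and 50.4 in LLC sh Spp1 and sh Ctrl, and 1273 and 910.3 in MC38 sh Spp1 and sh Ctrl.

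Pdpn was the one member with a high level in AE17 that LLC did not share. Its level was 9.75 on the AE17 sh Spp1 array and 6.99 on the AE17 sh Ctrl array, against 4.50 and 5.30 in LLC sh Spp1 and sh Ctrl and 9.63 and 9.70 in MC38 sh Spp1 and sh Ctrl. The AE17 sh Spp1 array was level with MC38, the AE17 sh Ctrl array lay between the other lines, and both LLC arrays were near the floor. AE17 exceeded LLC by 3.47 ± 0.89 log2 units (SE), or 11.1-fold, with an interval of 1.14 to 5.80 and an adjusted p of 0.308. Against MC38 the difference was -1.29 ± 0.89, with an interval of -3.62 to 1.04 and an adjusted p of 0.567. With the AE17 sh Ctrl array left out, AE17 stood 5.07 above LLC (adjusted p = 0.0048) and 0.30 above MC38. With the AE17 sh Spp1 array left out, it stood 1.88 above LLC (adjusted p = 0.0505) and 2.88 below MC38 (difference -2.88, adjusted p = 0.0099). Those fits assume that the lone AE17 array varies like the arrays of the other lines.

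Gata6 stood well above the floor in LLC and MC38, and in AE17 on the sh Spp1 array alone. Its level was 7.53 on the AE17 sh Spp1 array and 4.77 on the AE17 sh Ctrl array, against 7.56 and 6.79 in LLC sh Spp1 and sh Ctrl and 8.02 and 7.86 in MC38 sh Spp1 and sh Ctrl. The AE17 sh Ctrl array was the lowest of all 6 and close to the floor, while the AE17 sh Spp1 array fell among those of LLC. The difference of AE17 from the mean of LLC and MC38 was -1.41 ± 0.57 log2 units (SE, adjusted p = 0.377), with an interval of -2.90 to 0.09. It was -2.56 (adjusted p = 0.0133) without the AE17 sh Spp1 array and -0.26 (adjusted p = 0.629) without the AE17 sh Ctrl array.

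Bnc1 had its lower levels in AE17. It stood at 5.41 on the AE17 sh Spp1 array and 6.62 on the AE17 sh Ctrl array, against 6.47 and 8.15 in LLC sh Spp1 and sh Ctrl and 7.69 and 7.83 in MC38 sh Spp1 and sh Ctrl. The AE17 sh Spp1 array was the lowest, but the AE17 sh Ctrl array overlapped LLC sh Spp1. The difference of AE17 from the mean of the other lines was -1.52 ± 0.36 log2 units (SE), a 2.88-fold difference with an interval of -2.47 to -0.58 and an adjusted p of 0.270. It was -1.30 against LLC and -1.75 against MC38, with adjusted p of 0.354 and 0.253.

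Cav1 was strongly present in all lines. Its level was 9.83 on the AE17 sh Spp1 array and 10.67 on the AE17 sh Ctrl array, against 10.15 and 10.11 in LLC sh Spp1 and sh Ctrl and 9.71 and 10.34 in MC38 sh Spp1 and sh Ctrl. The AE17 arrays reached both sides of those of LLC. AE17 differed from the mean of LLC and MC38 by 0.17 ± 0.25 log2 units (SE), with an interval of -0.49 to 0.83 and an adjusted p of 0.782, and by -0.37 in the deposited intensities, where the sign turned.

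The remaining 5 members, Wt1, Upk3b, Upk1b, Lrrn4 and Gpm6a, lay between 4.25 and 5.83 on every array, at most 2.53-fold above the floor. Wt1, a nuclear marker used in the diagnosis of mesothelioma, had 5.64 and 5.83 in AE17 sh Spp1 and sh Ctrl, 5.67 and 5.23 in LLC sh Spp1 and sh Ctrl, and 5.65 and 5.71 in MC38 sh Spp1 and sh Ctrl. Its AE17 arrays overlapped those of both other lines. The uroplakin Upk3b had 5.58 and 5.77 in AE17 sh Spp1 and sh Ctrl, 5.79 and 5.39 in LLC sh Spp1 and sh Ctrl, and 5.52 and 5.35 in MC38 sh Spp1 and sh Ctrl, and Upk1b ranged from 4.77 to 5.41 with both extremes in AE17. Lrrn4 ranged from 4.28 to 5.42, again with both extremes in AE17, and was under the floor on the AE17 sh Ctrl and LLC sh Ctrl arrays. Gpm6a reached the floor on 2 arrays only, AE17 sh Spp1 at 4.77 and MC38 sh Ctrl at 4.86. Over these 5 genes, after quantile normalization, the difference of AE17 from the mean of the other lines ran from -0.01 to 0.17 log2 units, and the intervals allowed AE17 to be at most 1.74-fold higher or 1.60-fold lower. In the deposited intensities Wt1, Upk3b, Upk1b and Lrrn4 turned sign, at -0.48, -0.49, -0.57 and -0.46, while the median of all genes there was -0.54. Intervals on intensities this close to the floor bound the intensity and not the transcript.

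**Figure D2:**
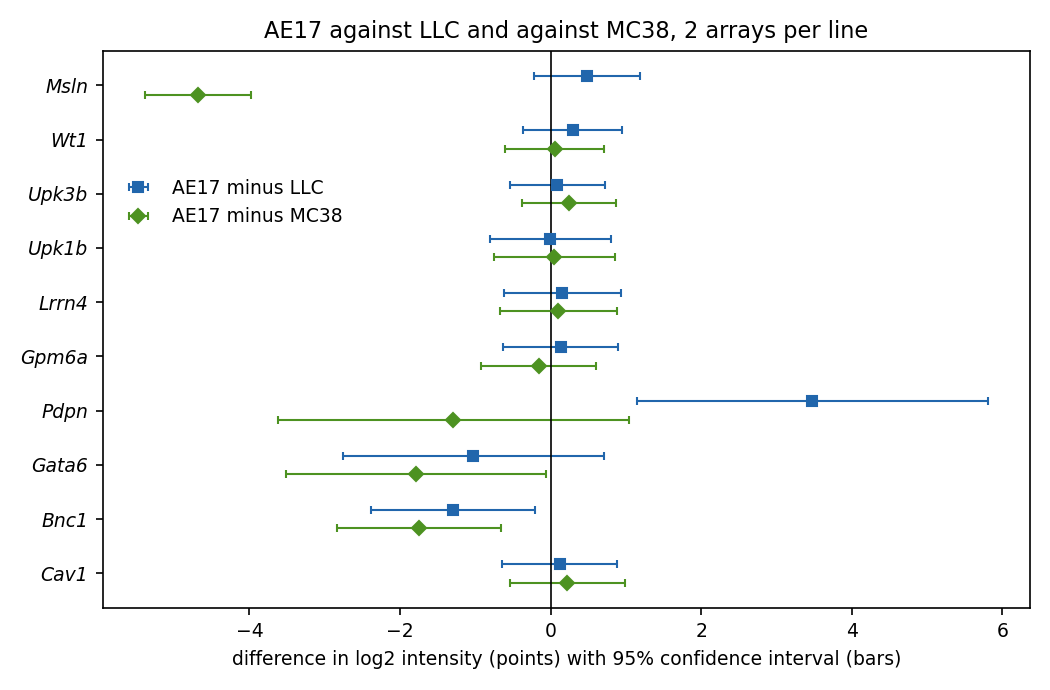
Difference in log2 intensity of AE17 minus LLC (squares) and AE17 minus MC38 (diamonds) for each gene, with 95% confidence intervals from limma as bars, 2 arrays a line. Msln in AE17 lay far below MC38 (-4.68) and Pdpn above LLC (3.47), Gata6 and Bnc1 were below 0 against both lines, and the other 6 genes were at most 0.29 log2 units from 0 against each line.

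In limma, with line and shRNA label in 1 model, 0 of the 10 members reached an adjusted p under 0.05 in AE17 against the mean of LLC and MC38, and neither did any other gene (0% of 16797 tested). The smallest adjusted p over all genes was 0.0943, and 2310 genes, 13.8%, had an unadjusted p under 0.05. Against LLC and against MC38 singly the count was also 0 (0% each), with smallest adjusted p of 0.129 and 0.0667 and 12.8% and 13.2% of genes at an unadjusted p under 0.05. The median difference over the 10 members was 0.08 log2 units, and 0.08 over all genes tested. The 2 AE17 arrays differ in shRNA label as well as in culture, and this spread enters the error of each line contrast. With the AE17 sh Ctrl array left out 1242 genes passed against the mean of LLC and MC38, and with the AE17 sh Spp1 array left out 786.

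Genes of mesothelium beyond the 10 members were read in the same lines. Of 30 further genes listed, 28 had a probe set and 24 were tested. In AE17 against the mean of LLC and MC38, 0% of all 16797 genes reached an adjusted p under 0.05, and 0 of these 24. Their median difference was 0.24 log2 units, with 16 higher and 8 lower, and both AE17 arrays lay above all others for 3 of the 24 and below for 2, where 14.7% and 7.57% of all genes were. Calb2, the calcium-binding protein calretinin, and Muc16, the mucin bound by mesothelin, lay under the floor on all 6 arrays, at 3.50 to 3.76 and 3.04 to 3.66. Keratins, which mesothelial cells carry together with vimentin, split in AE17: Krt8 had 6.47 on the AE17 sh Spp1 array and 11.08 on the AE17 sh Ctrl array, while its partner Krt18 had 4.67 and 5.01 on them. In LLC sh Spp1 and sh Ctrl Krt8 stood at 8.31 and 8.88 and Krt18 at 9.62 and 8.75. In MC38 sh Spp1 and sh Ctrl Krt8 stood at 7.14 and 6.69 and Krt18 at 5.50 and 5.16. Krt18 thus lay lower in AE17 than in any other array, and Krt8 reached both its highest and its lowest level there.

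Among the others, the protease inhibitor Slpi had 8.56 and 8.35 in AE17 sh Spp1 and sh Ctrl, above 6.24 to 8.31 on the other arrays, and the adhesion protein Bcam 6.87 and 6.02, above 5.74 to 5.94. Thbd, the thrombin receptor thrombomodulin that mesothelial cells display, had 4.69 and 4.62 in AE17 sh Spp1 and sh Ctrl, below 6.03 to 7.75 on the others. The differences from the mean of LLC and MC38 were 1.13 for Slpi, 0.59 for Bcam and -2.06 for Thbd, with adjusted p of 0.406, 0.429 and 0.139. The surface sialomucin Podxl had 8.74 and 8.07 in AE17 sh Spp1 and sh Ctrl and 8.51 and 7.74 in LLC sh Spp1 and sh Ctrl, against 5.54 and 6.19 in MC38 sh Spp1 and sh Ctrl. The T-box factor Tbx18, of the epicardium, was high in MC38 sh Spp1 and sh Ctrl at 7.65 and 7.67. It stood at 6.11 and 4.93 in AE17 sh Spp1 and sh Ctrl and at 4.64 and 5.83 in LLC sh Spp1 and sh Ctrl.

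**Figure D3:**
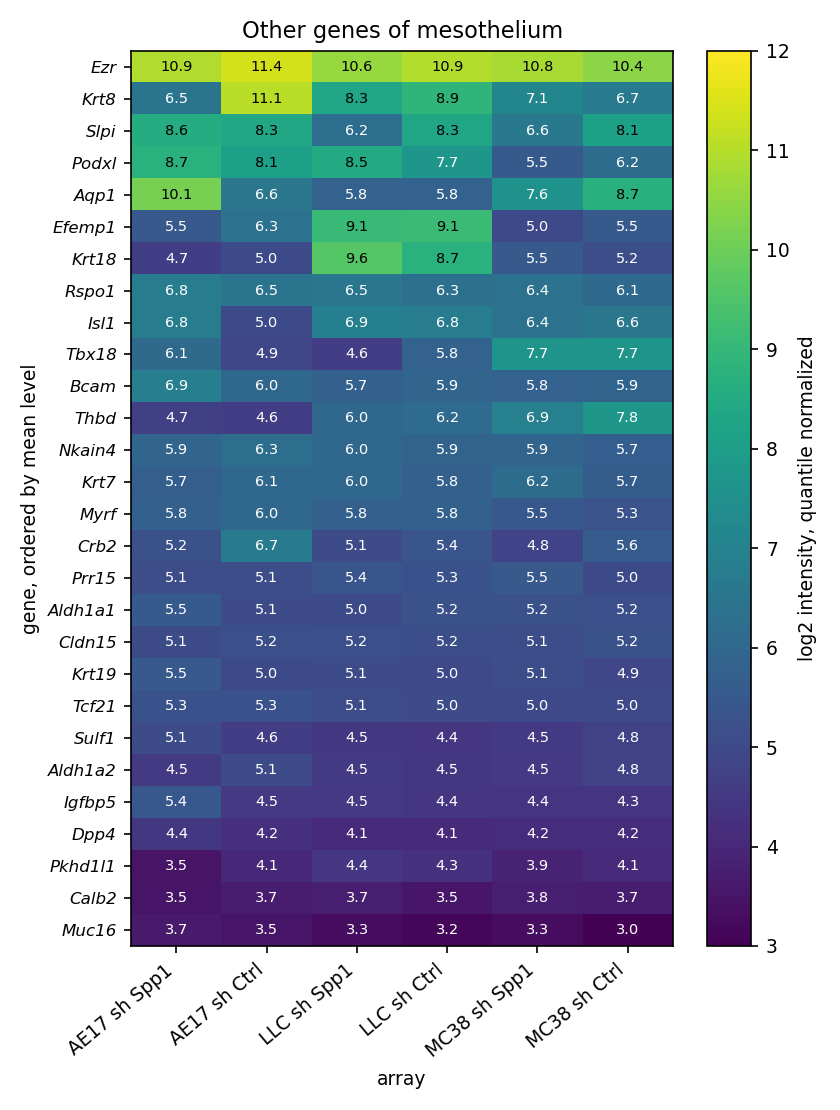
Log2 intensity (quantile normalized, colour and printed value) of the 28 further mesothelial genes with a probe set, on the 6 arrays, ordered by mean level. Krt8 and Aqp1 differ strongly between the AE17 arrays, Krt18 and Efemp1 are bright in LLC, and Calb2 and Muc16 are dim on every array.

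Relatives of the members were compared in the same way, and 0 of them passed in any list, as did 0% of all 16797 genes. The 6 uroplakins, which assemble in pairs in urothelium, include the members Upk3b and Upk1b, and all were tested. Of them 5 were higher and 1 lower by a median of 0.17 log2 units, and none exceeded 6.86 on any array. Upk2 had the largest difference, 0.47, with 5.74 and 6.86 in AE17 sh Spp1 and sh Ctrl. Of the 9 caveolin, cavin and associated genes tested, the member Cav1 included, 6 were higher and 3 lower, by a median of 0.15. Cavin2, a cavin that shapes caveolae, had 5.55 in AE17 sh Spp1 and 9.93 in AE17 sh Ctrl, against 8.92 to 10.63 in the other lines. Cavin3 had 11.80 and 10.36 in AE17 sh Spp1 and sh Ctrl, above 8.52 to 10.00 on the other arrays.

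Among GATA factors and their cofactors, the member Gata6 included, 1 of 8 was higher and 7 were lower, by a median of -0.13. Gata4, which acts beside Gata6 in heart and endoderm, was that one, at 8.16 and 7.15 in AE17 sh Spp1 and sh Ctrl, 7.71 and 6.85 in LLC sh Spp1 and sh Ctrl, and 6.09 and 6.33 in MC38 sh Spp1 and sh Ctrl. The GATA cofactor Zfpm2 had 7.43 and 5.02 in AE17 sh Spp1 and sh Ctrl, below 7.80 to 9.83 elsewhere. Of 9 tested paralogs and partners of the members, 5 were higher and 4 lower. Bnc2, the paralog of Bnc1, had 8.47 in AE17 sh Spp1 and 5.10 in AE17 sh Ctrl, against 5.62 and 6.65 in LLC sh Spp1 and sh Ctrl and 8.96 and 9.22 in MC38 sh Spp1 and sh Ctrl. The paralog of Gpm6a, Gpm6b, had 7.94 in AE17 sh Spp1 and 5.01 in AE17 sh Ctrl, against 4.49 to 4.65 on the other arrays. Lrrn4cl had 9.55 and 8.63 in AE17 sh Spp1 and sh Ctrl, above 6.46 to 7.58 on the others.

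Tumour suppressors often lost in human mesothelioma were measured for 7 of the 8 listed, and 0 passed, as did 0% of all genes. Cdkn2a and Cdkn2b, neighbouring cell-cycle inhibitors, had levels of 6.59 and 6.57 and of 7.89 and 6.72 in AE17 sh Spp1 and sh Ctrl, above 5.88 to 6.06 and 6.12 to 6.34 on the other arrays. The Hippo kinase Lats1 had 8.93 and 8.58, below 9.05 to 9.72. Of 10 tested genes of the YAP and TAZ output, the transcriptional arm of that pathway, 3 were higher and 7 lower, by a median of -0.46. The list's mean level was 9.33 and 8.29 in AE17 sh Spp1 and sh Ctrl, against 8.66 to 9.46 on the other arrays. Ccn2, a secreted matrix protein, had 8.94 and 6.08 in AE17 sh Spp1 and sh Ctrl, above 5.62 to 5.75 on the other arrays, a difference of 1.83 (adjusted p = 0.357). Ankrd1 had 9.36 and 8.90 in AE17 sh Spp1 and sh Ctrl, against 8.99 to 12.12 elsewhere.

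Levels of other cell types' markers were read on the same arrays. For mesothelial-to-mesenchymal transition 14 of 18 tested genes were higher in the mean of the AE17 arrays and 4 lower. Of them 0 passed, as did 0% of all genes. The median was 0.32, beside 0.08 over all genes tested. The list's mean level was 9.53 and 8.04 in AE17 sh Spp1 and sh Ctrl, against 8.23 to 8.44 on the other arrays. Both AE17 arrays lay above all others for 4 genes and below for 3, where 14.7% and 7.57% of all genes were. Acta2, smooth muscle actin, had 12.15 and 11.43 in AE17 sh Spp1 and sh Ctrl, against 7.62 and 8.43 in LLC sh Spp1 and sh Ctrl and 5.75 and 6.01 in MC38 sh Spp1 and sh Ctrl, a difference of 4.84 (adjusted p = 0.128). Of the fibroblast markers 10 were tested, 6 higher and 4 lower, and the list's mean level was 7.46 and 6.38 in AE17 sh Spp1 and sh Ctrl, 5.94 and 6.75 in LLC sh Spp1 and sh Ctrl, and 6.63 and 6.95 in MC38 sh Spp1 and sh Ctrl. The leukocyte marker Ptprc, the club cell marker Scgb1a1, the epithelial marker Epcam and the intestinal marker Fabp2 lay under the floor on all arrays, as did 3 of 8 measured leukocyte genes, 2 of 11 lung and 2 of 11 intestinal genes in all. The leukocyte gene Lyz2, for lysozyme, had 5.12 and 7.5 in AE17 sh Spp1 and sh Ctrl, against 4.34 to 4.72 on the other arrays. The intestinal keratin Krt20 had 3.79 and 6.83 in AE17 sh Spp1 and sh Ctrl, against 4.28 to 4.61 on the others. The endothelial list had mean levels of 4.96 to 4.99 in AE17, against 4.69 to 4.89 in the other lines. For lung epithelium these were 5.07 to 5.28 against 4.89 to 5.12, and for intestinal epithelium 4.88 to 5.18 against 4.70 to 4.94. The leukocyte list had 4.85 to 5.07 against 4.39 to 4.59, and the podocyte list 5.85 to 6.39 against 5.54 to 5.82. List means run over every measured gene, also those under the floor on all arrays. The leukocyte mean of 5.07, on the AE17 sh Ctrl array, includes Lyz2 at 7.5. The part of these cell types in the members' levels was not tested.

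The second comparison took sh Spp1 over sh Ctrl within each line, as 1 array over 1 array with no test. In AE17, 4 of 10 members were past an absolute log2 ratio of 1, with 3 upward and 1 downward. Among all genes at or above the floor in AE17 18.6% were, 9.9% upward and 8.71% downward. LLC had 1 of 9 members at or above the floor past that size, downward, where 3.56% of genes were, 1.75% upward and 1.81% downward. MC38 had 0 of 10, where 2.59% were, 0.882% upward and 1.7% downward. In the deposited intensities AE17 had 3 such members, where 23.2% of genes were, and LLC 4, where 17.9% were. After median centring AE17 had 4 (23.8% of genes) and LLC 2 (16.8%). The median ratio over the members was 0.36 in AE17, 0.04 in LLC and 0.01 in MC38, beside -0.04, 0.03 and 0.02 over all genes at or above the floor.

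**Figure D4:**
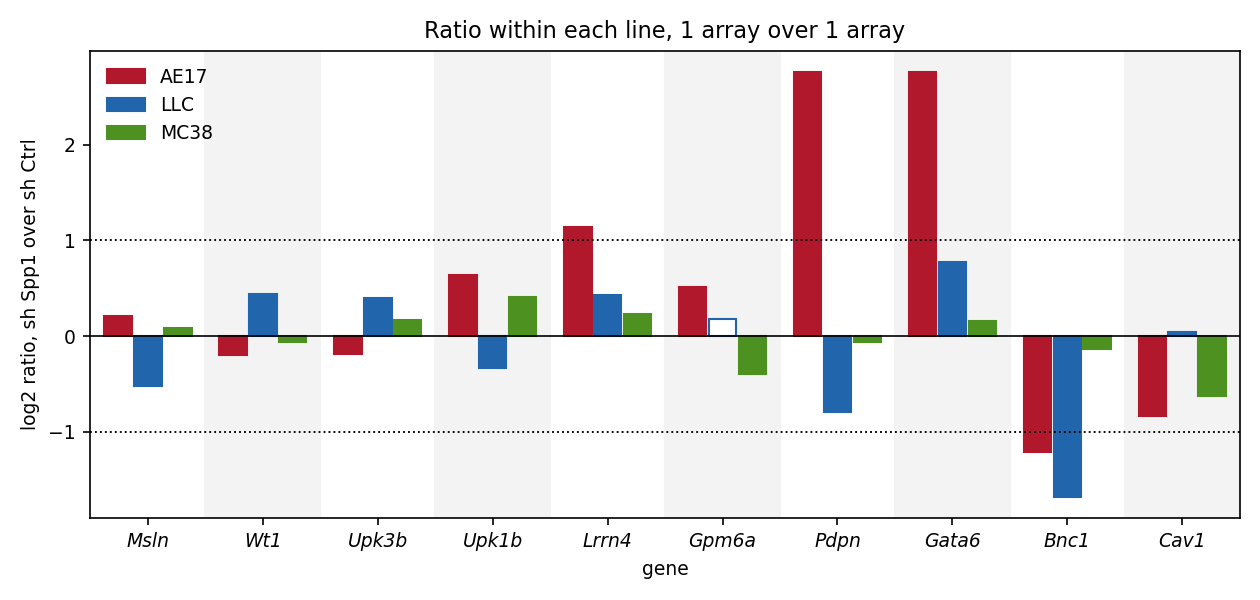
Log2 ratio of sh Spp1 over sh Ctrl for each gene in AE17, LLC and MC38, 1 array over 1 array, with dotted lines at 1 and -1; the white bar marks a gene under the floor on both arrays. Pdpn (2.76) and Gata6 (2.76) were higher on the AE17 sh Spp1 array, and Bnc1 was lower in AE17 (-1.21) and LLC (-1.68).

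Pdpn and Gata6 had the highest ratios of the members, both in AE17. Pdpn had a log2 ratio of 2.76 there, or 6.76-fold, against -0.79 in LLC and -0.07 in MC38. Gata6 had 2.76, or 6.78-fold, against 0.77 in LLC and 0.16 in MC38. The test of the difference itself, an interaction term in limma, gave 3.19 ± 0.42 (SE) for Pdpn (adjusted p = 0.0241) and 2.30 ± 0.40 for Gata6 (adjusted p = 0.0441). These are the 2 of 10 members past the threshold, both higher, where 4.24% of all genes were, 713 in all with 465 higher (2.77%) and 248 lower (1.48%). An unadjusted p under 0.05 was reached by 20.9% of genes. The other 8 members had interaction values between -0.55 and 0.81 with adjusted p of 0.250 to 0.843. This test has 1 residual degree of freedom, the difference between the LLC and MC38 ratios, and it compares 1 AE17 culture with another. No spread of AE17 enters its error, so AE17 ratios are taken to vary like those of LLC and MC38. Over all genes at or above the floor the SD of the ratios was 0.94 in AE17, 0.46 in LLC and 0.43 in MC38. Pdpn and Gata6 kept their side of the threshold under all 6 alternatives that could be run, with values of 3.19 to 3.56 and 2.09 to 2.30. All of these use the same pair of AE17 arrays, so they do not show whether the ratios would recur in other cultures.

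Other genes of these lists passed the same test, in which the AE17 ratio is set against the mean ratio of LLC and MC38. Among those with a higher AE17 ratio were the GATA cofactor Zfpm2 at a log2 ratio of 2.42, the paralogs Bnc2 at 3.37 and Gpm6b at 2.92, the water channel Aqp1 at 3.57, and the collagen Col1a1 and fibronectin Fn1 at 5.09 and 5.51. Krt8 had a lower one, at -4.61. Cavin2, at -4.38, had an adjusted p of 0.0516. Of the 18 genes of mesothelial-to-mesenchymal transition the median ratio was 1.01 in AE17, against -0.06 in LLC and -0.09 in MC38, and of the fibroblast markers 0.80, against -0.89 and -0.51. The AE17 arrays were the pair with the lowest correlation, as given above, and the part of these shifts in the Pdpn and Gata6 ratios was not tested.

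Bnc1 had a negative ratio in all 3 lines after quantile normalization, but its MC38 ratio was 0.09 in the deposited intensities and 0.27 after median centring. Its normalized ratio was -1.21 in AE17, -1.68 in LLC and -0.14 in MC38, a mean of -1.01 ± 0.79 (SD, n = 3 lines). Over the lines the fit gave -1.01 ± 0.34 (SE) and an adjusted p of 0.723. Gata6 and Lrrn4 had positive normalized ratios in every line, though Lrrn4 in LLC turned to -0.40 in the deposited intensities, with means of 1.23 ± 1.36 and 0.60 ± 0.48 (SD, n = 3 lines) and an adjusted p of 0.723 each. Lrrn4 had 1.14 in AE17, where its sh Ctrl level of 4.28 lay under the floor, 0.43 in LLC and 0.23 in MC38. In limma 0 of 10 members and 0% of the 16797 genes passed in the shRNA contrast fitted across lines, where the smallest adjusted p was 0.723 and 6.05% had an unadjusted p under 0.05.

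Msln had a ratio of 0.09 in MC38, where it was high, but 0.48 there in the deposited intensities and 0.66 after median centring. Its normalized ratio was 0.21 and -0.53 in AE17 and LLC, where it lay near the floor. Wt1 and Upk3b had ratios between -0.19 and 0.44 in all lines. Cav1 had -0.84 in AE17, 0.04 in LLC and -0.62 in MC38. Upk1b had 0.64, -0.33 and 0.41 and Gpm6a 0.52, 0.18 and -0.40 in AE17, LLC and MC38.

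For the 4 widely varying members, the genes with the most similar pattern over the 6 arrays were found by Pearson correlation of log2 levels among 1884 tested genes with a range of at least 2 log2 units. With 6 arrays in 3 pairs such values run high for many genes and are given as a description. Msln was followed by Dock8, Pbp2 and Sorcs2 at r = 0.998, 0.994 and 0.993, and Dock8 had 5.93 and 5.82 in AE17 sh Spp1 and sh Ctrl, 5.13 and 5.36 in LLC sh Spp1 and sh Ctrl, and 11.07 and 10.65 in MC38 sh Spp1 and sh Ctrl. Pdpn was followed by Scrn1, Tmem106a and Manea at 0.987, 0.985 and 0.985. Gata6 was followed by Zfp518a, Pank1 and Rcbtb1 at 0.990, 0.989 and 0.985, and these had log2 levels of 4.59, 4.61 and 4.84 on the AE17 sh Ctrl array and at least 6.38 on every other array. Bnc1 was followed by Bcl2, Dkk2 and Snora23 at 0.962, 0.951 and 0.948.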

How the data were processed

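RNA of 6 cultures was biotin-labelled with a whole-transcript kit and hybridised to 1-colour arrays, per the labels' protocols. The authors deposited a linear intensity for each of 41345 probe sets. RMA is named in the submitters' processing notes and GeneSpring GX 12.5 in the series' design text. Medians of the deposited intensities differed between arrays, so log2 intensities were quantile normalized with limma 3.58.1 in R 4.3.3. Genes were named from the platform annotation, in which 23521 probe sets had 1 symbol, 1814 several and 16010 none, and 23328 matched a RefSeq gene by Entrez ID. The brightest probe set stood for a gene. The floor was the 30th percentile of probe-set means (log2 4.49), and 16797 genes passed it.

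One additive limma fit (lmFit, eBayes) of line and shRNA label had 2 residual degrees of freedom, and Benjamini-Hochberg adjustment ran over all genes at 0.05. An interaction term set the shRNA effect in AE17 against that in LLC and MC38. Within a line, ratios are 1 array over 1 array. Members and gene lists were chosen with earlier results of these data known. Named were all members, marker genes of cell types, and, from each other list, some of the 2 highest, 2 lowest and 2 with the largest AE17 ratio. The number of arrays limits the precision. The fits were run on simulated data in which a gene had the same spread on every array. That setting does not mirror the low correlation of the AE17 pair, so it does not test the fits there. Plots used matplotlib 3.10.9 under Python 3.11.15.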

Additional observations from a re-analysis of the deposited data

Results flagged for a closer look

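Of 137 genes tested in the member and marker lists, 22 had a ratio of sh Spp1 over sh Ctrl in AE17 that differed from the mean ratio of LLC and MC38 by the interaction test in limma, with adjusted p from 0.0137 to 0.0491, 19 higher and 3 lower. Of all genes tested 4.24% passed, 2.77% higher and 1.48% lower. The lists were chosen with earlier results of these data known, so these shares do not measure an excess in the lists. All values below are that difference in log2 units, and each rests on 1 pair of AE17 arrays, from which the test takes no spread. The members among them were Pdpn at 3.19 and Gata6 at 2.30. Matrix and mesenchymal genes were Col1a1 at 5.69, Fn1 at 5.18, Cdh2 at 3.34, Pdgfrb at 3.34, Col6a2 at 3.29, Col6a1 at 3.07, Col3a1 at 3.03, Fap at 2.65 and Tgfb1 at 2.47. Relatives and partners of members were Bnc2 at 4.01, Zfpm2 at 3.09, Cavin4 at 2.98, Gpm6b at 2.94 and Ehd2 at 2.94. The remaining higher genes were the water channel Aqp1 at 4.13, the receptor Flt1 at 3.05 and the YAP target Ccn2 at 2.85. Lower were the keratins Krt8 at -4.55 and Krt20 at -2.93 and the lysozyme gene Lyz2 at -2.16.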

How the results depend on the processing

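The counts of genes past the threshold in the line contrasts moved with the scaling and with the AE17 arrays. Against the mean of LLC and MC38 the count was 0, and 336 in the deposited intensities, 1 with a trended prior and 14 without the shRNA term. Against LLC it was 0, and 103, 1 and 9 under the same settings, and against MC38 0, with 287 in the deposited intensities and 100 without the shRNA term. In the deposited intensities the median of all genes shifted to -0.54 against the mean of the other lines. With 1 array left out the counts ran from 0 to 1242, 0 to 1434 and 0 to 1155. They left 0 only without an AE17 array: 1242, 1434 and 1155 without AE17 sh Ctrl, and 786, 521 and 1108 without AE17 sh Spp1. The shRNA contrast stayed at 0 throughout, and its all-gene median was -0.18 in the deposited intensities and 0.30 with centring.

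Against the mean of LLC and MC38, the deposited intensities turned Wt1 to -0.48, Upk3b to -0.49 (-0.4851), Upk1b to -0.57, Lrrn4 to -0.46 and Cav1 to -0.37, and against LLC Msln to -0.14. Centring turned Gpm6a to 0.0034 and the shRNA value of Msln to 0.09 (0.0948). With 1 array left out, differences from the mean of the others ran from -0.0184 to 0.36 for Wt1, -0.0694 to 0.40 for Upk3b, -0.28 to 0.32 for Upk1b, -0.28 to 0.53 for Lrrn4, -0.20 to 0.30 for Gpm6a, -0.50 to 2.68 for Pdpn and -0.10 to 0.44 for Cav1. Gata6 against LLC ran from -2.17 to 0.12, Pdpn against MC38 from -2.88 to 0.30, and the shRNA values of Pdpn and Msln from -0.43 to 1.35 and -0.22 to 0.15.

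Against MC38 Msln gained a call in the deposited intensities (-5.24, adjusted p = 0.0019), without the shRNA term (0.0110) and without AE17 sh Ctrl (-4.47, 0.0047) or AE17 sh Spp1 (-4.90, 0.0031). Against the mean of the others Msln (-2.69, adjusted p = 0.0202) and Bnc1 (-2.20, 0.0475) gained one in the deposited intensities. Msln stood there at -2.32 without AE17 sh Spp1 and -1.88 without AE17 sh Ctrl. Fits that leave 1 AE17 array moved Gata6 and Pdpn as well. Without AE17 sh Spp1 Gata6 stood at -2.17 against LLC and -2.94 against MC38. Without AE17 sh Ctrl Pdpn stood at 2.68 against the mean of the others. Past an absolute log2 ratio of 1, LLC had 607 genes, and 3350 in the deposited intensities and 2863 with centring, and MC38 440, and 684 and 1063. At an absolute ratio of 2 the counts were 837 in AE17 (4.73% of genes), 53 in LLC (0.311%) and 72 in MC38 (0.423%). Among them were 2 members in AE17 and 0 in LLC. Members past 1 in LLC were 4 in the deposited intensities (17.9% of genes) and 2 with centring (16.8%). Both AE17 arrays lay above all others for 161 genes in the deposited intensities, against 2467, and below for 5937, against 1272, with 4 members below (35.3% of genes) and 1 with centring (857 genes, 5.1%). The interaction test could not be fitted with an array left out. The line term pairs the sh Spp1 and sh Ctrl arrays of a line, so the fit is already the paired analysis, and without that term the shRNA contrast also called 0 genes. The cause of these shifts was not tested.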
